A study of Homo sapiens with 6 samples.

Results

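The aminoacyl-tRNA synthetases are the enzymes that load each tRNA with its amino acid, and 35 of their genes, taken by symbol from a fixed list, were followed here out of 24305 gene symbols in the deposited table. All 35 were present and all 35 passed the filter on low counts that left 14452 genes for testing. The list held 19 cytosolic genes and 16 mitochondrial genes (the symbols that end in 2). It was drawn up by function and not by measured values. The libraries came from DU 145, an established human prostate cancer line in which, by the study's design text, homologous recombination repair is deficient. Cells had either 48 h with talazoparib, an inhibitor of PARP1 and PARP2 (3 libraries), or 48 h in a control group labelled "DMOS", read here as the solvent DMSO (3 libraries). The design text gives doses of 5, 10 and 20 µM, and the sequenced dose is not given in the labels. The line is a single established culture, nothing in the labels says that replicates were grown separately, and the spread behind each p-value may thus be no more than technical.

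Charging sets which amino acid a tRNA carries: a synthetase activity recognises 1 amino acid and its tRNAs, joins them at the cost of ATP, and hands the product to elongation factors. Cytosolic enzymes supply the main ribosomes, and a mostly separate nuclear-encoded set is imported into mitochondria to supply the ribosomes that make respiratory chain subunits. Several cytosolic enzymes sit together in the multi-synthetase complex. The kinase GCN2 (gene EIF2AK4) senses uncharged tRNA and raises translation of the transcription factor ATF4, which is known to activate many cytosolic synthetase genes.

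Total counts ran from 39443359 to 39585727 in the talazoparib libraries and from 39123997 to 39545215 in the control libraries. The epithelial keratins KRT8 and KRT18 were abundant (273 and 375 FPKM with talazoparib, 300.1 and 360 FPKM in controls), CDH1 was low (0.159 FPKM with talazoparib and 0.288 FPKM in controls), and the leukocyte gene PTPRC was at 0 FPKM in all libraries. Control replicate 1 lay closer to the talazoparib libraries than control replicates 2 and 3 did: it was below the mean of those 2 controls for 11 of 13 members that fell and above it for 13 of 14 that rose. All 27 calls held without it.

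Synthetase mRNAs moved in both directions with talazoparib in both compartments. Of 35 members, 14 rose (40.0%), 13 fell (37.1%) and 8 did not pass edgeR's quasi-likelihood test at a Benjamini-Hochberg adjusted p of 0.05. Over all 14452 genes tested 26.8% rose and 29.9% fell, 56.7% in either direction. Among the cytosolic genes 9 rose, 8 fell and 2 missed the threshold, and their median log2 fold change was 0.20. Among the mitochondrial genes 5 rose, 5 fell and 6 missed it, and the median was 0.13, against 0.00 over all genes tested. The 3 talazoparib libraries lay wholly above the 3 controls for 17 members and wholly below for 13, where such separation was seen for 31.6% and 32.8% of all tested genes, 64.4% together. The 35 genes together held the same share of the raw library totals in both groups, 0.550% ± 0.019 of counts with talazoparib and 0.550% ± 0.008 in controls (SD, n = 3 each). This share is not TMM-scaled, unlike the fold changes, so it does not show that rises and falls balance on their scale. CPM and FPKM are shares of a library, so a change in the total RNA of a cell cannot be told apart from none. Values per library below are CPM, the count as a share of the TMM-scaled library, and fold changes are talazoparib over control with their standard error.

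**Figure D1:**
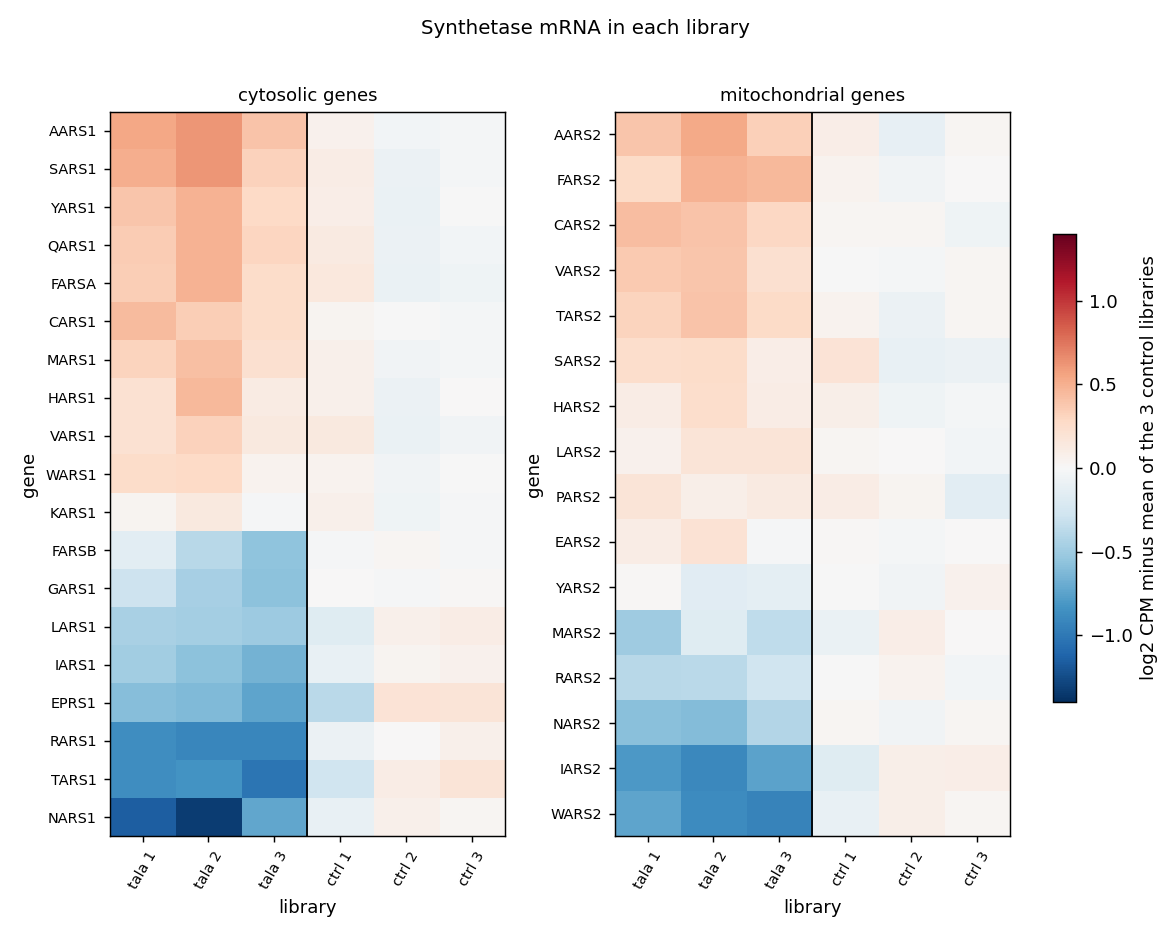
Each cell is the log2 CPM of a gene in a library minus the mean of the 3 control libraries, for 19 cytosolic (left) and 16 mitochondrial (right) genes ordered by fold change, with talazoparib libraries (tala) left of controls (ctrl). Both panels run from red (higher) at the top to blue (lower) at the bottom, and the first control is tinted like the talazoparib libraries for EPRS1, TARS1 and IARS2.

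Fold changes across this transcriptome ran with the GC content of the transcript (Pearson 0.63 and Spearman 0.69 over 13718 genes). No correlation with length was taken over all genes. Each gene was also fitted after removal of each library's own trend over GC content and the length implied by the deposited FPKM. In that trend-removed fit 22.0% of 13718 genes rose and 22.2% fell, 44.2% in either direction; 6 members rose (17.1%), 12 fell (34.3%) and 17 did not pass. A real response that runs with GC content would be removed with the trend, and the 2 cannot be told apart here.

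The deepest falls among cytosolic genes were in NARS1, TARS1 and RARS1. NARS1, which charges tRNA with asparagine (chr18:57600656-57621836, GRCh38), had 56.5, 49.8 and 76.1 CPM in the talazoparib libraries, against 117, 132 and 128 CPM in the control libraries. The groups lay well apart, and the third talazoparib library was the least reduced; the log2 fold change was -1.05 ± 0.13 (edgeR adjusted p = 7.5e-05). TARS1, the threonyl enzyme (chr5:33440696-33468091), had 137, 140 and 123 CPM with talazoparib, against 206, 267 and 283 CPM in controls (-0.92 ± 0.11, edgeR adjusted p = 5.16e-05). Here control replicate 1 was the nearest to the treated libraries. RARS1, the arginyl enzyme (chr5:168486471-168519301), had 41.7, 40.4 and 40.4 CPM with talazoparib and 72.3, 76.6 and 80.1 CPM in controls, tight within both groups, and its fall of -0.90 ± 0.08 had the smallest edgeR adjusted p of the family, 9.4e-06. Trend-removed, these 3 genes still fell, by log2 values of -0.77, -0.56 and -0.48. For NARS1, TARS1 and RARS1 the direction and call held in every alternative fit that was run.

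GARS1, whose single gene supplies glycyl-tRNA synthetase to both cytosol and mitochondria (chr7:30594735-30634033), had 243, 216 and 201 CPM with talazoparib, against 299.6, 293.5 and 300.4 CPM in controls. All 3 treated libraries were below all controls (-0.44 ± 0.08, edgeR adjusted p = 0.000643). With 48.6% GC it lies near the middle of the transcriptome, and its trend-removed log2 fold change was much the same, -0.45 ± 0.06. IARS1, the isoleucyl enzyme, had 260, 245 and 232 CPM with talazoparib and 341, 375 and 382 CPM in controls (-0.58 ± 0.08, edgeR adjusted p = 7.58e-05). LARS1, the leucyl enzyme that also acts as a leucine sensor for the growth kinase mTORC1, had 140.2, 138 and 135 CPM with talazoparib, against 171, 201 and 207 CPM in controls (-0.49 ± 0.08, edgeR adjusted p = 0.000411). Neither of the last pair passed trend-removed (-0.13 and 0.10). EPRS1, a single chain with glutamyl and prolyl activities, averaged 80.9 ± 4.25 CPM with talazoparib and 129 ± 27.0 CPM in controls (SD, n = 3 each), the wide control spread coming from replicate 1 at 97.9 CPM; it fell by 0.67 on the log2 scale and did not pass trend-removed (-0.18).

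The largest rises among cytosolic genes were in AARS1 and SARS1. AARS1, the alanyl enzyme and the most abundant member per length (chr16:70252298-70289506), had 959, 1012 and 866 CPM with talazoparib, against 689, 642 and 647 CPM in controls. The groups did not overlap (0.52 ± 0.08, edgeR adjusted p = 0.000182), and the trend-removed value was 0.31. SARS1, the seryl enzyme, which also charges the tRNA that becomes selenocysteine tRNA (chr1:109213893-109238182), had 198, 215 and 175 CPM with talazoparib and 150, 132 and 137 CPM in controls (0.49 ± 0.09, edgeR adjusted p = 0.000618), and 0.27 trend-removed. AARS1 and SARS1 kept direction and call in every alternative fit. The cysteinyl enzyme CARS1 rose by 0.35 and by 0.16 trend-removed, again past the test in both. YARS1, QARS1 and MARS1, which charge tyrosine, glutamine and methionine, rose by 0.39, 0.38 and 0.32, and none of these 3 passed trend-removed (0.04, 0.05 and 0.07). HARS1, the histidyl enzyme, rose by 0.27 ± 0.10 (edgeR adjusted p = 0.029; 0.31 trend-removed), a call lost without talazoparib replicate 1 or 2 or control replicate 2 or 3 (0.17 to 0.29).

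The calls of 3 genes turned direction with the trend removed, all in cytosolic genes. FARSA and FARSB encode the catalytic and the partner subunit of the same phenylalanyl enzyme, and as counted they moved apart. FARSA had 212, 233 and 198 CPM with talazoparib, against 184, 157 and 160 CPM in controls (0.36 ± 0.09, edgeR adjusted p = 0.00377). FARSB had 74.7, 63.1 and 56.2 CPM with talazoparib and 82.1, 84.5 and 81.9 CPM in controls (-0.36 ± 0.10, edgeR adjusted p = 0.0085). Trend-removed, FARSA fell (-0.14) and FARSB rose (0.46). FARSB has a deposited length of 9202 nt where its longest protein-coding GENCODE transcript has 3369 nt, and with GENCODE lengths in the trend neither subunit passed (-0.09 for FARSA, 0.17 for FARSB). VARS1, the valyl enzyme, had 712, 773 and 679 CPM with talazoparib and 677, 579 and 597 CPM in controls; it rose narrowly (0.22 ± 0.08, edgeR adjusted p = 0.0364) and fell trend-removed (-0.15). Its rise as counted was lost without talazoparib replicate 1 or 2 or control replicate 2 or 3 (0.15 to 0.24).

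KARS1 and WARS1 did not pass. KARS1, which like GARS1 serves both compartments from 1 gene, had 336, 360 and 323 CPM with talazoparib, against 344, 314 and 324 CPM in controls, with overlapping groups (0.05 ± 0.07, edgeR adjusted p = 0.559). It did not pass trend-removed (0.14) but rose in 3 other trend removals (0.18 to 0.29). WARS1, the tryptophanyl enzyme known for its induction by interferon, had 149.8, 153 and 130.4 CPM with talazoparib and 130.2, 122 and 125 CPM in controls. The groups lay just apart, with an edgeR adjusted p of 0.0514 (0.20 ± 0.08) that passed under RLE scaling (0.21) and without talazoparib replicate 3 (0.27) or control replicate 1 (0.18).

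The 7 members of the multi-synthetase complex divided in the same way. EPRS1, IARS1, LARS1 and RARS1 fell, MARS1 and QARS1 rose, and KARS1 missed the threshold; the median log2 fold change was -0.49. The 4 that fell have 43.6% GC or less and the 2 that rose 53.7% or more. Of all genes tested, 63.4% fell under 45% GC and 50.8% rose with 50% GC or more. Trend-removed, only RARS1 passed and the median of the 7 was 0.05. By catalytic fold, 7 of 19 class I enzymes rose and 8 fell, and 7 of 16 class II enzymes rose and 5 fell, so both folds held members of both directions. EPRS1, which fell, is counted in class I only, although its prolyl activity is of class II. Over all genes tested 26.8% rose and 29.9% fell.

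Among the mitochondrial genes, IARS2, WARS2 and NARS2 fell most. IARS2, the mitochondrial isoleucyl enzyme (chr1:220094132-220148041), had 83.6, 78.1 and 86.7 CPM with talazoparib, against 129.7, 154 and 155 CPM in controls (-0.82 ± 0.09, edgeR adjusted p = 2.06e-05). WARS2, the tryptophanyl enzyme (chr1:119031216-119140672), had 8.51, 7.71 and 7.43 CPM with talazoparib and 13.2, 15.0 and 14.4 CPM in controls (-0.85 ± 0.13, edgeR adjusted p = 0.000159). NARS2, the asparaginyl enzyme, had 20.6, 20.4 and 23.3 CPM with talazoparib and 31.5, 30.0 and 31.5 CPM in controls (-0.53 ± 0.10, edgeR adjusted p = 0.000715). In all 3 genes every treated library was below every control, and all 3 fell trend-removed (-0.46, -0.39 and -0.24). IARS2 was the only mitochondrial member whose call held in every alternative fit. RARS2 fell by 0.35 and did not pass trend-removed (0.16), and MARS2 fell by 0.34 (edgeR adjusted p = 0.0388; -0.32 trend-removed), a call lost without talazoparib replicate 1 or 3 or control replicate 2 or 3 (-0.37 to -0.26).

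The 5 mitochondrial genes that rose were AARS2, FARS2, CARS2, VARS2 and TARS2. AARS2, the alanyl enzyme, had 70.8, 78.1 and 68.3 CPM with talazoparib, against 57.7, 49.8 and 55.2 CPM in controls (0.42 ± 0.09, edgeR adjusted p = 0.00165). CARS2, the cysteinyl enzyme, had 53.0, 51.8 and 47.9 CPM with talazoparib and 40.0, 40.2 and 37.7 CPM in controls (0.37 ± 0.08, edgeR adjusted p = 0.00232). TARS2, the threonyl enzyme, had 147, 156 and 142 CPM with talazoparib and 122, 112 and 121 CPM in controls (0.33 ± 0.08, edgeR adjusted p = 0.00273). The groups did not overlap for any of them, and none of AARS2, CARS2, TARS2 and VARS2 passed trend-removed (0.14, 0.12, 0.04 and -0.05). FARS2, a single-chain phenylalanyl enzyme, rose by 0.41 ± 0.11 and by 0.35 trend-removed, past the test both times; its call as counted was lost without control replicate 2 or 3 (0.35 and 0.37). EARS2, HARS2, LARS2, PARS2, SARS2 and YARS2 did not pass, with log2 fold changes of -0.09 (YARS2) to 0.19 (SARS2). Without control replicate 1, SARS2 passed as higher (0.26). Trend-removed, SARS2 (-0.31) and YARS2 (-0.22) fell.

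**Figure D2:**
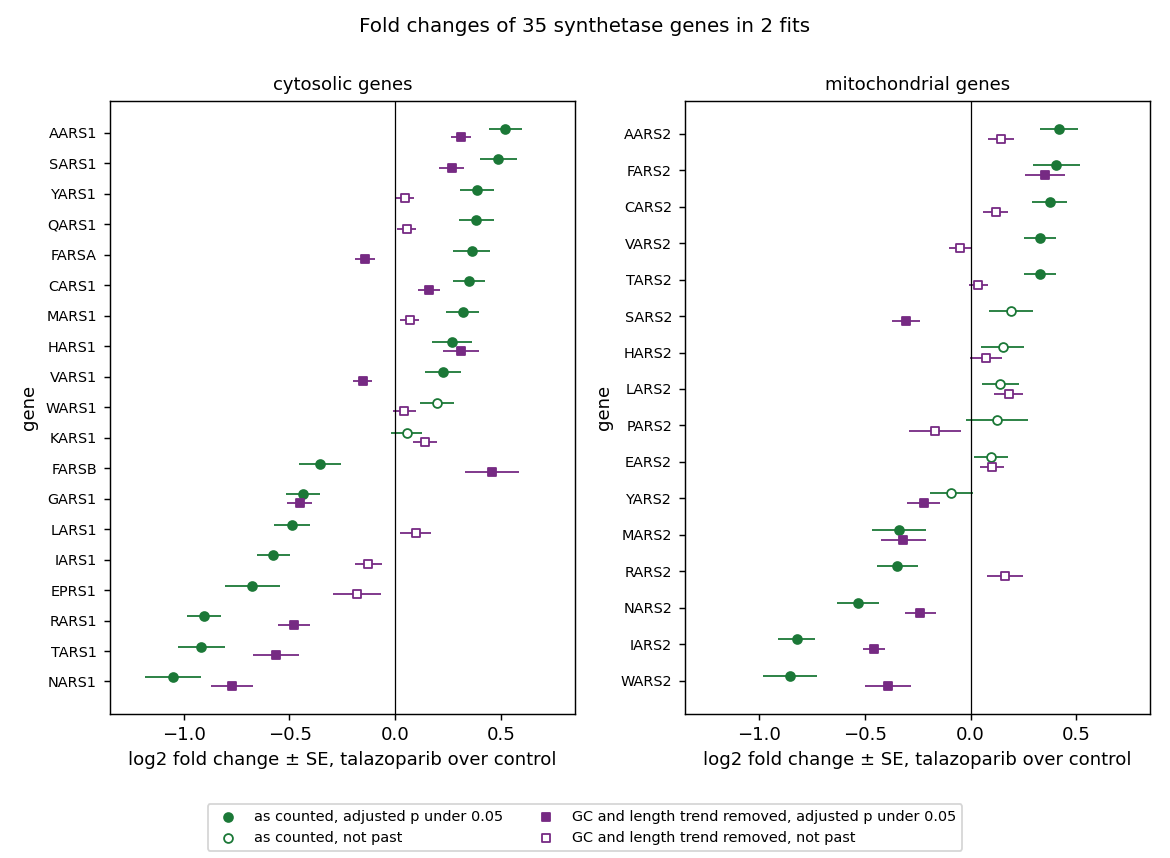
Points are log2 fold changes of talazoparib over control with their SE (bars), as counted (green circles) and with the GC and length trend removed (purple squares), filled where the adjusted p is under 0.05. NARS1, TARS1, RARS1, GARS1 and IARS2 stay left of 0 in both fits, AARS1 and SARS1 stay right of it, and FARSA, FARSB and VARS1 cross it.

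The direction of a synthetase gene followed the GC content of its transcript, in bands of GC chosen after the values were seen. All 11 members under 45% GC fell, 7 of them cytosolic and 4 mitochondrial, with a median log2 fold change of -0.67; of all 4733 tested genes in that band 63.4% fell and 2.89% rose. Of 18 members with 50% GC or more, 13 rose and none fell, with a median of 0.34; of all 6633 tested genes in that band 50.8% rose and 5.92% fell. The 6 members between, KARS1, HARS1, MARS2, GARS1, HARS2 and YARS2, gave 1 rise and 2 falls. Across the 35 members the correlation of log2 fold change with GC content was 0.81 (Pearson) and 0.80 (Spearman), and with deposited length -0.07 and -0.08; the points come from the same 6 libraries, and the correlation with GC content over 13718 genes was 0.63 and 0.69. Trend-removed, 6 of the 11 low-GC members fell and 1 rose, and 4 of the 18 high-GC members rose and 3 fell.

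**Figure D3:**
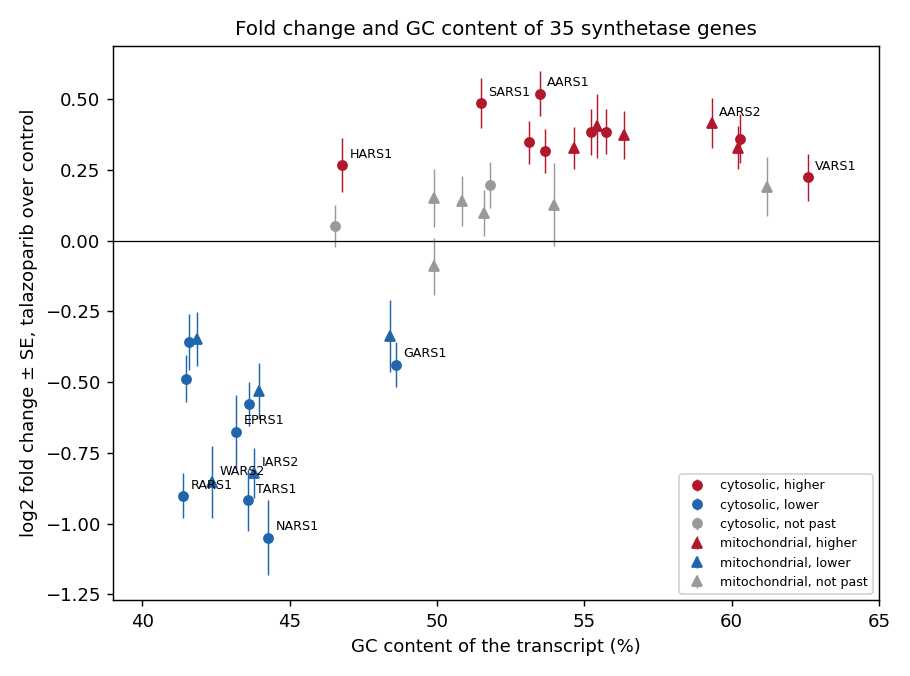
Log2 fold change of talazoparib over control with SE (vertical axis) against the GC content in percent of the longest protein-coding transcript (horizontal axis) for 19 cytosolic (circles) and 16 mitochondrial (triangles) genes, coloured by the edgeR call. Members under 45% GC all lie below 0 and those with 50% GC or more all lie above it, in both compartments.

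Of the cytosolic genes, 13 are widely described as targets of ATF4. In this list 6 rose (AARS1, CARS1, MARS1, SARS1, VARS1 and YARS1), 6 fell (EPRS1, GARS1, IARS1, LARS1, NARS1 and TARS1) and WARS1 missed the threshold; the median log2 fold change was 0.20. Trend-removed, 3 rose and 4 fell. Among the 6 other cytosolic genes 3 rose and 2 fell, with a median of 0.16. Of all genes tested 26.8% rose and 29.9% fell. The letters TGATGNAA, the core of the composite element that ATF4 and C/EBP proteins share, were searched on both strands in the RefSeq promoter windows of GRCh38.p14, which run from 250 bases before to 50 after a transcription start annotated for the gene. Windows were at hand for 30 of the 35 members and were not used for AARS2, LARS1, VARS1, VARS2 and YARS1. The stricter form TGATGCAA, every match of which also matches the looser one, was found in 6 of the 30 members and in 1.08% of all 27305 genes in the table; TGATGNAA was found in 8 of the 30 and in 4.46% of all genes.

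These 8 matches are shown because genes that share the element went both ways. Each line is read along the gene's own strand, with the match in capitals; TTGCATCA and TTTCATCA are the element on the opposite strand. The first 3 genes rose, the next 4 fell and YARS2 did not pass.
AARS1 (chr16:70289660-70289719, minus strand): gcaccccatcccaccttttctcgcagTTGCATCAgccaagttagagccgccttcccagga
CARS1 (chr11:3057392-3057451, minus strand): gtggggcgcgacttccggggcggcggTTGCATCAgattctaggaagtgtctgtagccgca
MARS1 (chr12:57488038-57488097, plus strand): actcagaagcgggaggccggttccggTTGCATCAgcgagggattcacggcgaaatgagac
GARS1 (chr7:30594819-30594878, plus strand): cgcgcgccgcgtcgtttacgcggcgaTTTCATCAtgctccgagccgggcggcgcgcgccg
IARS1 (chr9:92293677-92293736, minus strand): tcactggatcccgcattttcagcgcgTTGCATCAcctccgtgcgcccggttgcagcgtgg
NARS1 (chr18:57621789-57621848, minus strand): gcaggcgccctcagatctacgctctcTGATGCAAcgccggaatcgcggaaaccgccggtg
TARS1 (chr5:33440941-33441000, plus strand): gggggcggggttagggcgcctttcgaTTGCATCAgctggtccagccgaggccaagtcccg
YARS2 (chr12:32756061-32756120, minus strand): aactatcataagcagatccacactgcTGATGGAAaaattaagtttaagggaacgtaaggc
The midpoint of the match lay within 30 bases of the start on which its window was built in CARS1, MARS1, GARS1, IARS1, NARS1 and TARS1, and at -183 in AARS1 and -193 in YARS2, where negative positions lie before the start. For GARS1 and TARS1 that start lies downstream of the first base of the gene given above. Trend-removed, AARS1 and CARS1 rose, GARS1, NARS1, TARS1 and YARS2 fell, and MARS1 and IARS1 did not pass. A match is a description of these letters and not a bound site.

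A list that joins genes of amino acid sensing with stress genes of the ATF4 arm held more rises than falls. Of 11 tested, 8 rose, 2 fell and ASNS, the asparagine synthetase, did not pass (1.17 ± 0.042 CPM with talazoparib and 1.39 ± 0.304 CPM in controls, SD, n = 3 each). Trend-removed, 7 rose and 2 fell. Of all genes tested 26.8% rose, and of those with 50% GC or more 50.8% rose; the median GC content of this list was 56.7%. SESN2, DDIT4 and TRIB3, stress-induced genes known to respond to ATF4, had the smallest adjusted p, with log2 fold changes of 1.09 ± 0.10, 0.91 ± 0.09 and 0.84 ± 0.09 (trend-removed 0.71, 0.44 and 0.43), and all 3 have over 58% GC. Chosen after their values were seen, ATF4 itself rose (442 ± 11.8 CPM with talazoparib and 352 ± 16.6 CPM in controls), and EIF2AK4, the kinase that senses uncharged tRNA, fell (81.9 ± 1.76 CPM with talazoparib and 133 ± 13.0 CPM in controls). Both calls held trend-removed (0.27 and -0.47). IMPACT was the other gene of this list that fell (-0.81, and -0.19 trend-removed), and GCN1 rose (0.29 in both fits). The calls of these genes held trend-removed too, so the rises of this list do not extend to all of its sensing genes.

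In FPKM, a level per length, AARS1 was the highest member, at 268 with talazoparib and 197 in controls, and FARSB the lowest cytosolic one, at 6.84 with talazoparib and 9.24 in controls. TARS2 led the mitochondrial genes with 52.8 FPKM with talazoparib and 44.3 FPKM in controls, and FARS2, PARS2 and WARS2 were the lowest, at 2.76, 2.62 and 2.18 FPKM with talazoparib and 2.19, 2.52 and 4.15 FPKM in controls. These levels use deposited lengths. For FARSB (9202 nt) and FARS2 (7099 nt) the GENCODE transcript is far shorter (3369 and 1692 nt), so their low ranks depend on the length used. Summed FPKM of the 19 cytosolic genes was 1602, 1655 and 1528 with talazoparib, against 1543, 1553 and 1564 in controls, with overlapping groups. That of the 16 mitochondrial genes was 213, 215 and 212 with talazoparib, against 216, 224 and 226 in controls. Here, scaled by library total, the treated libraries were all lower, control replicate 1 being the nearest to them. Both sums are scaled by library total only, unlike the fold changes, and sums under TMM scaling were not tested. TMM factors were 0.9706, 0.9541 and 0.9998 with talazoparib and 0.9964, 1.051 and 1.032 in controls. Divided by these factors, the sums of both compartments overlap between the groups. IARS2 alone fell from a mean of 42.6 FPKM in controls to 22.9 FPKM with talazoparib, more than the mean mitochondrial sum did (222 to 213).

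Per length, the cytosolic gene exceeded its mitochondrial counterpart in controls for every pair compared. The log2 ratio of FPKM was taken in each library for 17 pairs, in which EPRS1 and FARS2 each appear in 2, since EPRS1 charges glutamate and proline and the cytosolic phenylalanyl enzyme has 2 subunits. In controls the cytosolic gene was between 1.82 and 43.0 times its partner; with talazoparib it was above its partner in 16 of the 17 pairs. Deposited and GENCODE transcript lengths were over 1.5 times apart for 6 members (FARSB, HARS1, TARS1, CARS2, FARS2 and RARS2), so these level ratios depend on the lengths, while their changes between groups do not. With GENCODE lengths the cytosolic gene was above in 17 pairs in controls and 15 with talazoparib.

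The ratio between compartments separated the groups for single amino acids, in either direction, and was described without a test. Ratios in the 3 talazoparib libraries were all above the controls in 5 pairs and all below in 7, and the median change over the 17 pairs was -0.04 on the log2 scale. Among single genes, 64.4% of all tested had groups that lay apart in either direction, and no such share was taken for pairs of other genes. For threonine the cytosolic gene fell and the mitochondrial one rose: the log2 ratio of TARS1 to TARS2 was -0.17, -0.23 and -0.27 with talazoparib, against 0.69, 1.19 and 1.16 in controls. With talazoparib TARS1 was thus 0.857 times TARS2 per length, where in controls it was 2.02 times. Tryptophan lay the other way, the ratio of WARS1 to WARS2 being 4.31, 4.48 and 4.31 with talazoparib and 3.48, 3.20 and 3.29 in controls, or 20.7-fold and 10.0-fold. Methionine (MARS1 to MARS2) lay as tryptophan did, with log2 ratios of 5.86, 5.64 and 5.64 with talazoparib and 5.22, 4.91 and 5.03 in controls.

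Both partners fell for asparagine, arginine and isoleucine, and both rose for alanine, cysteine, valine and, with the FARSA subunit, phenylalanine. Opposite calls were made in 3 pairs, TARS1 with TARS2, MARS1 with MARS2 and FARSB with FARS2. In the trend-removed fit asparagine was the only amino acid with both partners lower, and FARSB and FARS2 were both higher. Opposite calls in that fit were in 2 other pairs, SARS1 (higher) with SARS2 (lower) and FARSA (lower) with FARS2 (higher). The difference between partners there was -0.60 for threonine, 0.57 for serine, 0.43 for tryptophan and 0.38 for methionine. Over the 17 pairs the change in ratio ran with the difference in GC content between the partners (Pearson 0.739, Spearman 0.711; the pairs share genes and libraries).

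**Figure D4:**
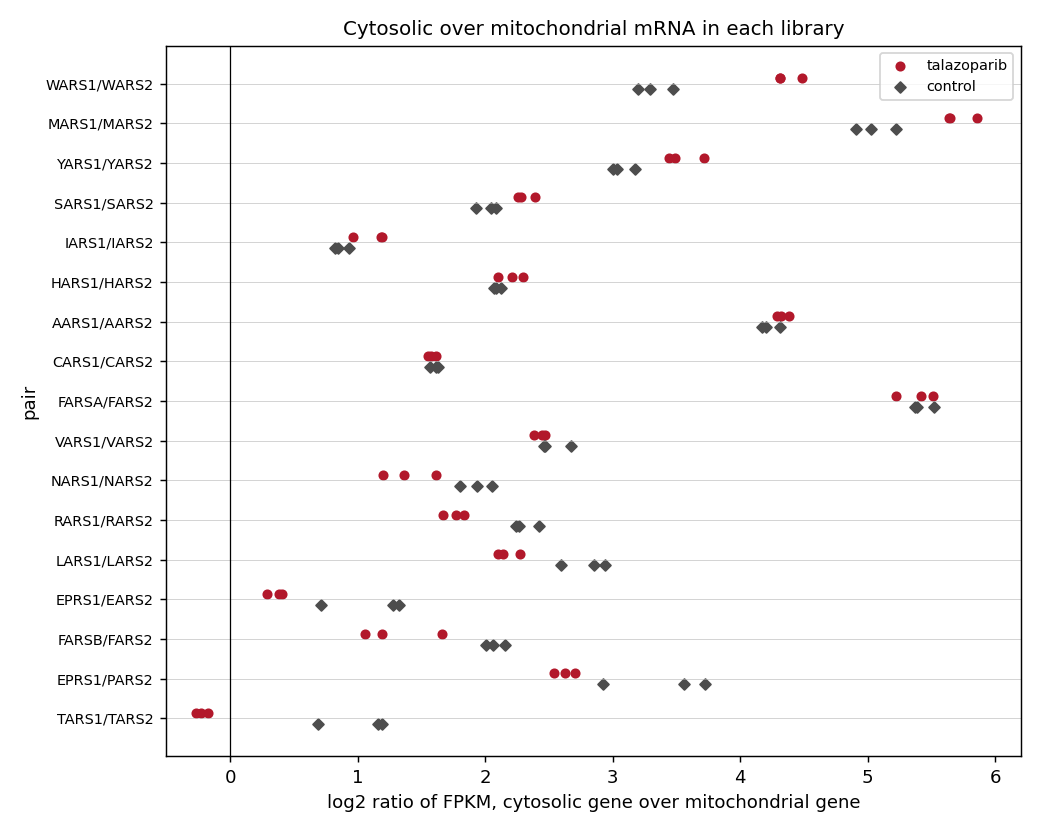
Log2 ratio of FPKM of the cytosolic over the mitochondrial gene in each of the 3 talazoparib (red circles) and 3 control (grey diamonds) libraries, for 17 pairs ordered by the change. TARS1/TARS2 at the bottom lies below 0 with talazoparib and above it in controls, and WARS1/WARS2 at the top is over 4 with talazoparib and under 3.5 in controls.

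HARS1 and HARS2 lie head to head on chromosome 5, and their annotated first bases, 140691370 and 140691455, are 84 bases apart. The stretch that both promoter windows cover is shown because 1 piece of DNA serves a cytosolic and a mitochondrial gene. It is read along the plus strand, the strand of HARS2, and capitals mark the letters CCGGAAG, the core of an ETS element, on either strand.
HARS1/HARS2 (chr5:140691321-140691504, plus strand): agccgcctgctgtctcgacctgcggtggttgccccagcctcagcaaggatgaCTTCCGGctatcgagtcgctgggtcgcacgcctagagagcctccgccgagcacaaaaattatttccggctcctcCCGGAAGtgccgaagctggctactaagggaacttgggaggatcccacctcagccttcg
HARS1 rose (0.27 ± 0.10, fragile as given above) and HARS2 did not pass (0.15 ± 0.10, edgeR adjusted p = 0.219), with 24.3, 27.0 and 24.5 CPM with talazoparib, against 24.1, 21.9 and 22.3 CPM in controls. The log2 ratio of HARS1 to HARS2 overlapped between the groups, at 2.21, 2.30 and 2.10 with talazoparib and 2.08, 2.07 and 2.13 in controls. CCGGAAG was found in 16 of the 30 members with a window and in 12.2% of all genes, and CACGTG, an E-box bound by MYC among others, in 4 of the 30 (IARS1, CARS2, EARS2 and MARS2) and in 8.77% of all genes.

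Partners of the synthetases also moved in both directions. Of the 3 scaffold genes of the multi-synthetase complex, AIMP1 fell (11.6 ± 2.26 CPM with talazoparib and 25.8 ± 3.65 CPM in controls, SD, n = 3 each; -1.16 ± 0.16), AIMP2 rose (97.0 ± 7.93 CPM with talazoparib and 73.8 ± 6.86 CPM in controls; 0.39 ± 0.09), and EEF1E1 did not pass (0.10). AIMP1 and AIMP2 kept their calls trend-removed (-0.41 and 0.19), and EEF1E1 rose there (0.49). Of 4 tested genes for accessory charging and editing, DTD2, which clears wrongly charged tRNA, and SEPSECS, which completes selenocysteine on its tRNA, fell by 0.50 and 1.06. Neither passed trend-removed (0.03 and -0.29), and SEPSECS was low (0.284 FPKM with talazoparib and 0.628 FPKM in controls). Over all genes tested 29.9% fell, and 63.4% of those under 45% GC, where both genes lie (39.2% and 37.5%). DTD1 did not pass as counted (0.20) and rose trend-removed (0.54). AARSD1 was too low to test. Mitochondria make their glutaminyl-tRNA with an amidotransferase, and of its genes GATC and GATB rose by 0.26 and 0.35 while QRSL1 fell by 0.51; of these GATC alone passed trend-removed (0.59, with GATB at 0.22 and QRSL1 at 0.07).

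XPOT, the exporter of tRNA from the nucleus, fell to 113 ± 13.1 CPM with talazoparib, against 260 ± 27.9 CPM in controls (-1.21 ± 0.10; -0.49 trend-removed). It was among 4 of 12 tested genes for tRNA transport and maturation that fell, while 2 rose. Over all genes tested 29.9% fell and 26.8% rose. RPP30 (-0.53) and POP7 (0.30) were the next in this list by adjusted p, and RPP14 was too low to test. Trend-removed, 3 of the 12 fell and 1 rose; RPP30 did not pass (0.10) and POP7 turned to a fall (-0.31). Of 5 cytosolic elongation genes 4 rose and EEF1A1, which carries charged tRNA to the ribosome, fell (3662 ± 119.5 CPM with talazoparib and 5037 ± 133 CPM in controls; -0.46 ± 0.07, -0.26 trend-removed). EEF1G and EEF2 rose by 0.61 and 0.42. The median GC content of these 5 was 54.8%, and of all genes tested with 50% GC or more 50.8% rose. Trend-removed, 2 of the 5 rose and 1 fell, with EEF1G higher (0.20) and EEF2 not past the test (0.02). Of 9 genes for mitochondrial translation factors 6 fell and TUFM rose by 0.32, with a median log2 fold change of -0.54. The median GC content of these 9 was 41.6%, and of all genes tested under 45% GC 63.4% fell. MRRF, which recycles mitochondrial ribosomes, fell by 1.29, MTIF2, an initiation factor, by 1.07, and GFM1, an elongation factor, by 0.97. All 3 also fell trend-removed (-0.59, -0.47 and -0.24). In that fit 3 of the 9 fell, TSFM (0.27) and MTRF1L (0.34), an elongation and a release factor named here after their values were seen, rose, TUFM did not pass (-0.11), and the median was -0.11.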

How the data were processed

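Total RNA of DU 145 cells was sequenced in 6 libraries. TRIzol extraction and a VAHTS Universal kit were used, per the labels' protocols. Trimmomatic, HISAT2, Cufflinks and HTSeq appear in the submitters' processing notes, with GRCh38 as the build. Versions, annotation and strand use in counting: not given in the sources used here, so reads of overlapping genes may be mixed. The authors deposited whole-number counts per gene symbol and FPKM for the same 24305 symbols. The deposited FPKM carry a per-gene length and the library total as their only scaling; the lengths they imply are whole within 0.01 nt for 99.95% of 21065 genes with a count; they are used as deposited lengths.

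The test on counts was that of edgeR 4.0.16 under R 4.3.3 (filterByExpr with a minimum count of 10, TMM, robust quasi-likelihood test, Benjamini-Hochberg adjustment over all 14452 genes, threshold 0.05). CPM use TMM-adjusted library sizes; levels between genes use FPKM. SE values come from the F statistic (log2 fold change over its square root). The trend-removed fit adds as an offset each library's trend of log2 CPM (prior count 2) over GC content of the longest protein-coding transcript in GENCODE release 29 and log2 deposited length (natural splines, 5 degrees of freedom); 13718 genes (94.9%) and all 35 members had both. The fits were also run on simulated counts with known changes. The simulated trend was made with the same splines that the fit removes, so that run cannot show whether the trend in the real libraries is modelled rightly. Members, lists and the trend-removed fit were chosen with earlier results of these data known; values in every library are given for the 8 cytosolic and 6 mitochondrial members with the smallest adjusted p, for members whose call turned direction trend-removed, and for others chosen after their values were seen. Up to 3 other pathway genes per list are named by adjusted p. ATF4, EIF2AK4, IMPACT, GCN1, ASNS, EEF1E1, TUFM, TSFM, MTRF1L and untested genes are named besides. RefSeq (GRCh38.p14) gave gene positions and promoters. Counts of replicates differed by more than sampling noise in all 6 pairs. Alternatives were other scalings and filters, DESeq2 1.42.0, limma 3.58.1 on log2(FPKM + 1) and log2(FPKM + 0.1), other trend removals, a replicate block and leaving out each library. Depth put 213 counts or more on every member in every library, the lowest being PARS2 in control replicate 3.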

Additional observations from a re-analysis of the deposited data

How the results depend on the processing

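Under the other scalings, filters, tools and left-out libraries, 23 of the 27 called members kept direction and call; the exceptions were HARS1, VARS1, MARS2 and FARS2. Under total count scaling HARS1 (0.19) and VARS1 (0.15) did not pass. With any trend removal added, 7 kept both (AARS1, SARS1, GARS1, NARS1, RARS1, TARS1 and IARS2). DESeq2 and the absence of a count filter changed no member's call. Leaving out 1 library at a time gave mitochondrial median log2 fold changes of 0.076 (without control replicate 3) to 0.14, and 4 to 6 mitochondrial and 7 to 10 cytosolic genes higher. KARS1, which did not pass in these, lay below 0 under total count scaling (-0.0205), limma on log2(FPKM + 1) with or without a filter (-0.0207), limma on log2(FPKM + 0.1) (-0.0208) and length trend removal (-0.083); leaving out 1 library gave it -0.0095 (without control replicate 2) to 0.090 (without talazoparib replicate 3). The mitochondrial median was 0.060 with total count scaling, 0.048 with limma on log2(FPKM + 1) with or without a filter, and 0.059 on log2(FPKM + 0.1). Total count scaling shifted the median of all genes to -0.072.

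Removing the GC and length trend left 5 cytosolic and 1 mitochondrial genes higher, with medians of 0.044 and -0.0063. It reversed FARSA (-0.14), FARSB (0.46), LARS1 (0.097), VARS1 (-0.15), PARS2 (-0.17), RARS2 (0.16), SARS2 (-0.31) and VARS2 (-0.050). Removing the length trend alone gave a mitochondrial median of 0.049 and reversed FARSB (0.15) and PARS2 (-0.0017); EARS2 (0.36) and LARS2 (0.40) passed as higher, making 7 mitochondrial genes higher, and FARSA (0.17) and HARS1 (0.089) no longer passed. The other 3 trend removals were chosen after seeing the data. The GC trend alone left 5 cytosolic genes lower, and 1 mitochondrial gene higher and 2 lower (median -0.023); it gave FARSA -0.023, FARSB 0.27, LARS1 0.15, VARS1 -0.20, PARS2 -0.066, RARS2 0.26, SARS2 -0.21 and VARS2 -0.057. GC with GENCODE lengths left 5 cytosolic genes higher and 4 lower and 1 mitochondrial gene higher (median 0.0024), with FARSA at -0.090, FARSB 0.17, LARS1 0.17, VARS1 -0.094, CARS2 -0.012, PARS2 -0.13, RARS2 0.050 and SARS2 -0.27. Without control replicate 1, GC and length removal left 2 mitochondrial genes higher (median -0.029), with FARSA at -0.13, FARSB 0.56, LARS1 0.082, VARS1 -0.12, PARS2 -0.15, RARS2 0.22, SARS2 -0.27 and VARS2 -0.088. KARS1 passed as higher in these 3 (0.29, 0.19 and 0.18), and LARS2 in the last 2 (0.19 and 0.21). The cause of these shifts was not tested.

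Same-numbered libraries did not deviate together (correlations -0.09, -0.17 and 0.004 for replicates 1 to 3), so they share only a number. A replicate block alone left 7 cytosolic genes higher and 8 lower and 5 mitochondrial genes higher and 4 lower, losing HARS1, VARS1 and MARS2. With the block and the GC and length trend removed, 4 cytosolic genes were higher and 4 lower (median 0.0436), 1 mitochondrial gene was higher (median -0.0060), and 2569 of all genes were higher and 2575 lower. That fit gave FARSA -0.14, FARSB 0.45, LARS1 0.092, VARS1 -0.15, PARS2 -0.17, RARS2 0.16, SARS2 -0.31 and VARS2 -0.0496. The median change in the ratio of cytosolic to mitochondrial partner was -0.04, and 0.04 trend-removed. The libraries carry no dose, and transcript GC content was had for the longest transcript only.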
